A study of Mus musculus with 24 samples.

Results

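The 9 tight junction genes Cldn5, Ocln, Lsr, F11r, Jam2, Jam3, Esam, Tjp1 and Cgnl1 were taken by their symbols and followed across barrier-opening and barrier-tightening treatments of brain endothelial cells. They were 9 of the 18091 genes in the wild-type table, and all 9 passed the filter on low values that left 12249 genes for testing. RNA was sequenced from mouse brain microvascular endothelial cells (MBMECs), primary cells of cortex and midbrain capillaries, in 24 libraries of 6 groups with 4 libraries each. In 4 groups, C57B/6J wild-type cells were treated for 24 h with 50 nM sphingosine-1-phosphate (S1P) from the basal or the apical side, or with 500 nM of the S1P4 receptor agonist CYM50260 from the apical or the basal side. A further group held cells of the global knockout line labelled S1P4 KO/KO, which received vehicle, and the last held C57B/6J wild-type cells with vehicle. The design text of the series names basal S1P as the opening treatment and the other 3 as tightening ones. All groups had 48 h of puromycin to remove other cell types, were grown to a barrier on permeable inserts for 48 h before treatment, and gave RNA from 3 inserts per sample and 12 mice per replicate. Animals were therefore pooled, and no source used here ties a library to its own pool of mice, so the tests measure the spread between these libraries.

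Tight junctions are belts of strand-forming membrane proteins that close the space between neighbouring cells, and in brain capillaries they form the main paracellular seal of the blood-brain barrier. Claudins and occludin lie in the strands, lipolysis-stimulated receptor (Lsr) marks the corners where 3 cells meet, junctional adhesion molecules bind across the contact, and scaffold proteins tie all of these to the actin cytoskeleton. S1P acts through a family of G-protein-coupled receptors, several of which act on the actin cytoskeleton at endothelial junctions.

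RefSeq promoter sequence (GRCm38.p6) was matched for 6 of the 9 genes, namely Cldn5, Ocln, Lsr, F11r, Tjp1 and Cgnl1. The 250 bases before the start are shown for Cldn5, the gene with the highest level per kilobase in every group, and for Ocln, the gene of the 9 with the smallest p between opening and tightening treatments. Both windows end at the start of the gene in the wild-type table. The Tjp1 window, counted below with the rest, belongs to a start 156537 bases away from that of the wild-type table, inside the gene. Those of Lsr and F11r belong to starts 5 and 26 bases away. Capitals mark CCAAT (a box bound by nuclear factor Y) and GGGCGG (a box bound by SP factors), searched on both strands.
Cldn5, chr16:18776597-18776846 (+): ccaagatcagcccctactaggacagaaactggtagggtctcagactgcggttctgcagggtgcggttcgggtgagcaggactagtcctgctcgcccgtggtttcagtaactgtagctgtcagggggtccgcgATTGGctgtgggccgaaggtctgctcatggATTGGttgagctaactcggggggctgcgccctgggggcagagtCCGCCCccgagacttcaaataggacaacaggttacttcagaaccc
Ocln, chr13:100552719-100552968 (-): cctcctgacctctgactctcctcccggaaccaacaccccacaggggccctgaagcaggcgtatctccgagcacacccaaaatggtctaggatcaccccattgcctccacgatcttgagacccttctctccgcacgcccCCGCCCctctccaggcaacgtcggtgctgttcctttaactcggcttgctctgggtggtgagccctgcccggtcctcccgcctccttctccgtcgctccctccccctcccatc
The Cldn5 window held the CCAAT box at 2 positions and the GC box at 1, all on the reverse strand, and the Ocln window held the GC box at 1 position and no CCAAT box. The GC box was present in 6 of the 6 matched windows and in 32.7% of all 32851 mouse windows of this length, and the CCAAT box in 2 of 6 (Cldn5 and F11r) and in 33.9% of all windows. An E-box of the form CAGGTG was present in 2 of 6 (Lsr and F11r), against 17.2% of all windows. The SOX core, searched as the letters ACAAT, was in 0 of 6, against 27.7%. The ETS core, searched as AGGAAG, was in 0 of 6, against 29.5%. No motif searched overlapped another in the windows shown. The 6 windows were 59.6% to 70.8% G and C, and the median of all windows was 52.4%.

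Values are normalized counts, the deposited whole-number signal per gene, with 4.49 to 4.72 M per wild-type library from an estimated 3.93 to 5.54 M reads. S1pr4, the gene of the receptor S1P4, had 250, 261, 349 and 260 in the libraries labelled knockout and 128 to 189 in wild-type vehicle libraries. The tables were normalized separately, and the extent of the deletion is unknown here. The highest value of any gene was 6171 to 8346 per wild-type library, against 206738 to 266381 in the knockout table. The totals do not account for this difference between the tables. The 9 genes differed unevenly between the tables too. Mean vehicle values, wild type first, were 162 and 172 for Jam3, 2834 and 16598 for Tjp1, and 1182 and 19606 for Esam. The part of this difference between the tables in the fold changes of abundant genes was not tested. By Xist, the RNA of the inactive X chromosome, 4 wild-type libraries were unlike others of their replicate number: S1P basal 2 at 552, S1P apical 3 and 4 at 525 and 1417, and agonist apical 2 at 1382. In the other wild-type libraries Xist was at 0 or 1 in replicate 1 and at 2251 to 2555 in replicate 2. It was at 1063 to 1608 in replicate 3 and at 173 to 244 in replicate 4. The part of the sex of the mice in these values was not tested. The 4 libraries unlike their number are called in doubt below. The differences from vehicle are given with and without them where they bear on a group. As a check of the cell label, 7 endothelial markers (Pecam1, Cdh5, Tie1, Erg, Kdr, Emcn and Cldn5 itself) summed to 12669 to 15475 in all 20 wild-type libraries. The 7 pericyte markers summed to 200 to 2558, the 4 smooth muscle markers to 935 to 2192, the fibroblast markers to 40 to 532, the astrocyte markers to 59 to 123 and the microglia and macrophage markers to 0 to 41. The neuron list summed to 74 to 330 with Snap25 and Syt1 at 0 or not listed, the oligodendrocyte list to 2 to 17 with Mog and Olig2 at 0 or not listed, and the epithelial and choroid plexus list to 0 to 101 with Epcam at 0 or not listed. Their part in the levels of the 9 genes was not tested. In such bulk samples, fewer cells of a type and less RNA per cell cannot be told apart.

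None of the 9 genes passed the test (limma on log2 of the value plus 1, Benjamini-Hochberg adjusted p under 0.05 over 12249 genes) in any treatment against vehicle. With basal S1P, 0 of 9 passed, where 0.0245% of all genes did (3 genes, all lower), and 0 of 9 were under an unadjusted p of 0.05, against 5.22% of all genes. With apical S1P 0 of 9 passed, against 0% of all genes, with apical agonist 0 of 9, against 0%, and with basal agonist 0 of 9, against 0%. At an unadjusted p under 0.05 these 3 comparisons held 0, 1 (Esam) and 0 of the 9 genes, and 122, 134 and 38 of all genes. Those were 0.996%, 1.09% and 0.31% of all genes, shares below the rate that the threshold of 0.05 sets. The fit had no term for the replicate number, which held a median of 42.9% of the sum of squares over all tested genes. Its SEs and intervals, here and below, therefore include that spread. Without the 4 libraries in doubt 0 of the 9 passed in these 4 comparisons too (limma). The fold changes of the 9 genes were 0.800 to 1.08 with basal S1P, 0.813 to 1.08 with apical S1P, 0.869 to 1.10 with apical agonist and 0.964 to 1.08 with basal agonist. In each of these 4 ranges except the last, the lowest value is Jam2. The sign counts were 5 higher and 4 lower for basal S1P, 5 and 4 for apical S1P, 8 and 1 for apical agonist, and 7 and 2 for basal agonist. The median log2 differences of the 9 genes were 0.02, 0.02, 0.09 and 0.05 in that order, and the medians of all tested genes lay between -0.0042 and 0.0045. These sign counts moved with the scaling of the libraries, as given below for Cldn5, F11r and Esam. A p that misses the threshold does not show that the genes did not differ. Over the 9 genes, the 95% confidence intervals reached from -0.87 to 0.29 on the log2 scale for basal S1P and from -0.75 to 0.34 for apical agonist, both low ends being those of Jam2.

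**Figure D1:**
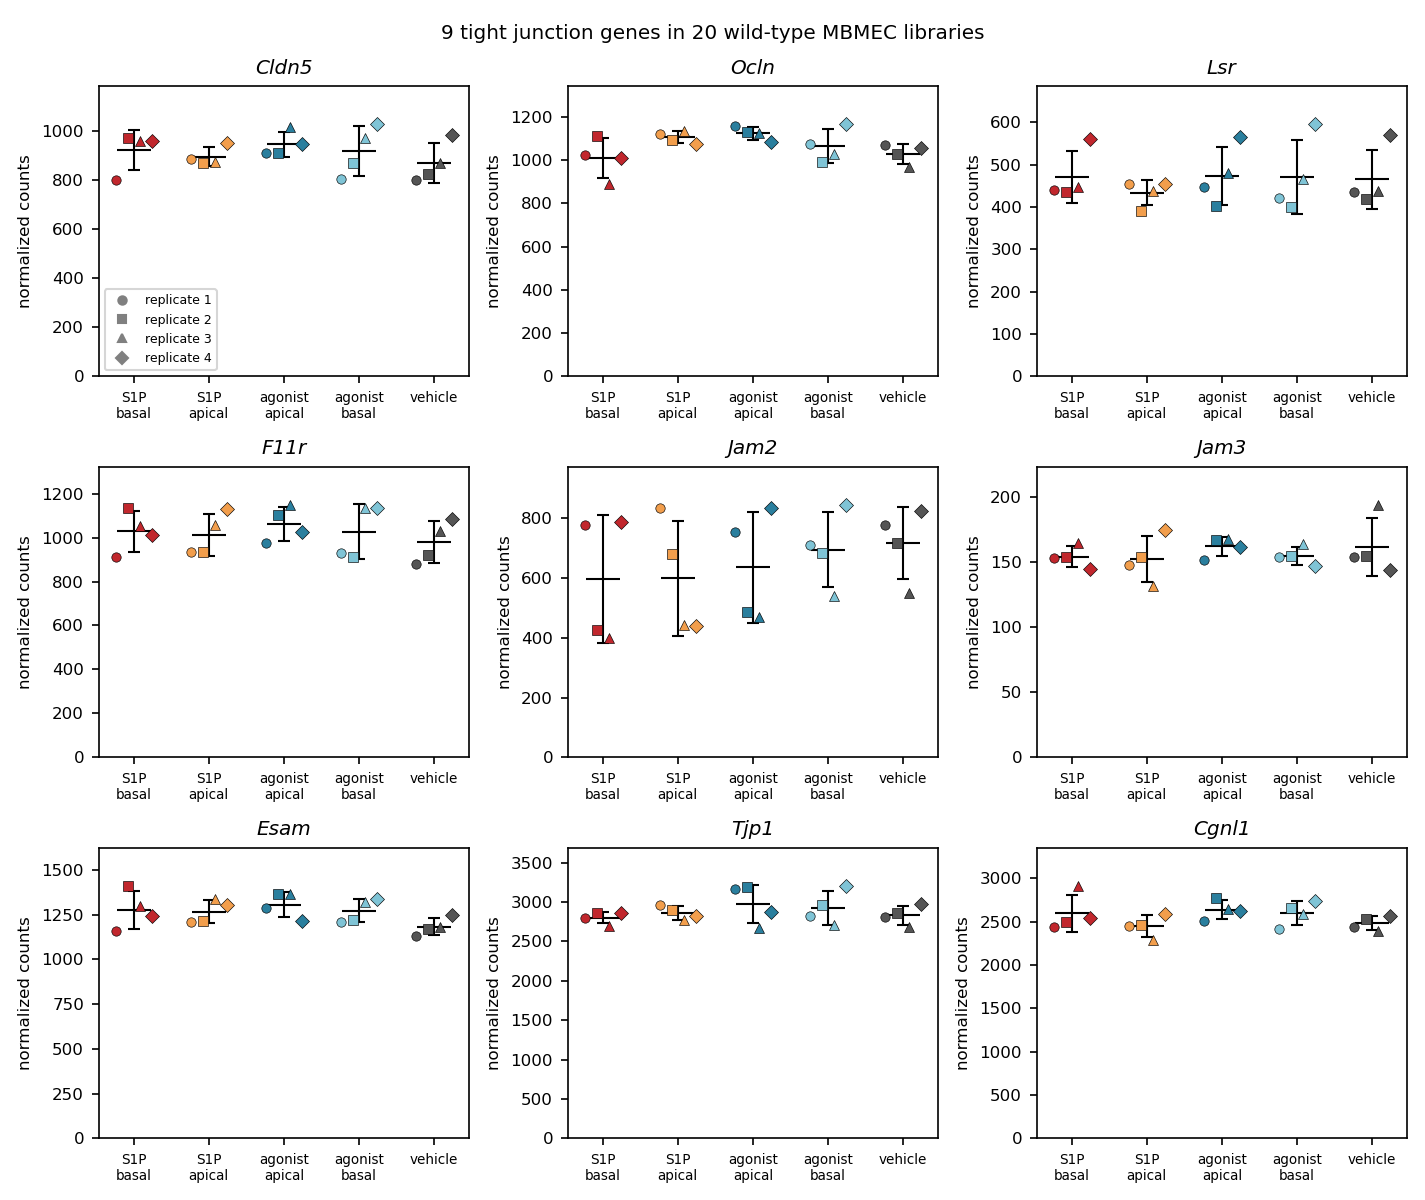
Normalized counts of the 9 genes in each of the 20 wild-type libraries, by treatment, with the replicate number as the symbol and the mean ± SD of 4 libraries as bars. All axes start at 0; every treated group overlaps vehicle except for Ocln, which lies above all 4 vehicle libraries in both apical treatments.

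**Figure D2:**
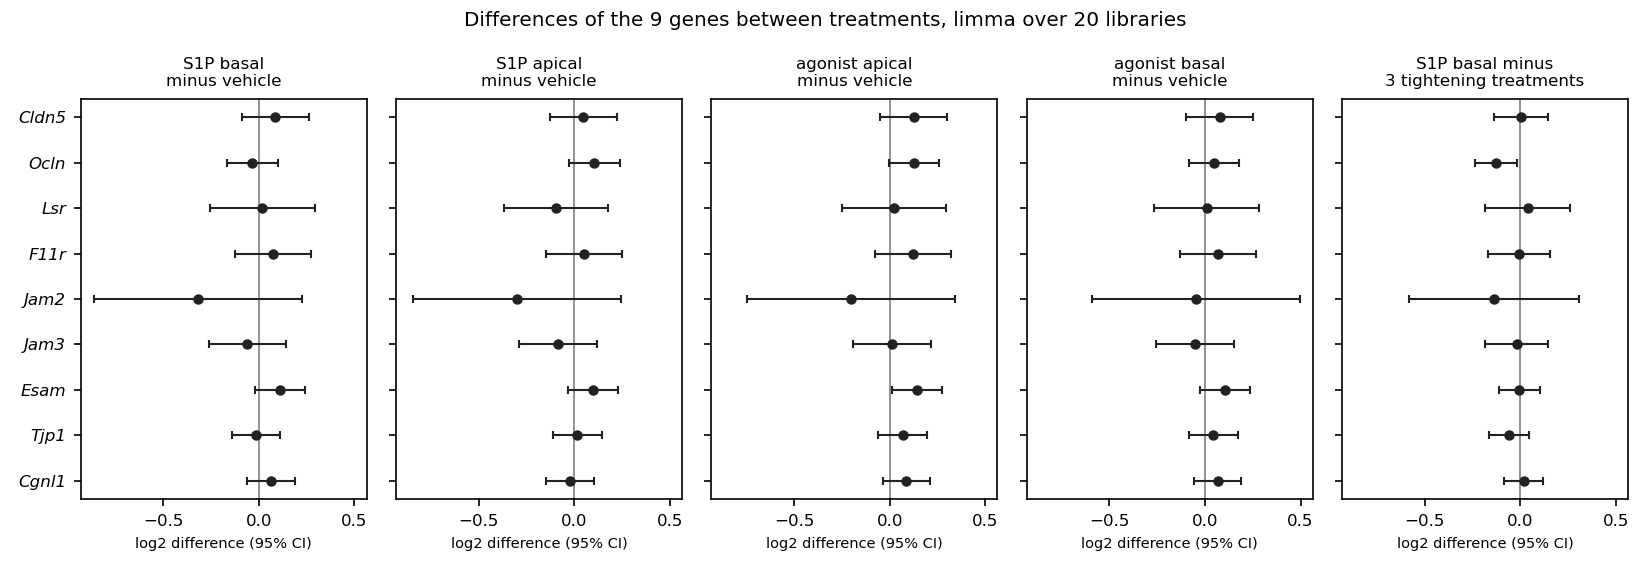
Log2 difference of each gene with its 95% confidence interval from limma over 20 libraries, in 4 comparisons with vehicle and 1 with the 3 tightening treatments. Of the 45 intervals shown, those of Esam with apical agonist and of Ocln for basal S1P against the tightening treatments leave out 0, and neither passes the adjusted test.

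Among the strand proteins, Cldn5 encodes claudin-5, the main claudin of brain endothelium, without which the mouse barrier leaks small molecules. The gene (ENSMUSG00000041378) spans 18776847 to 18778262 of chromosome 16, plus strand (mm10). Cldn5 had 799, 970, 959 and 959 normalized counts with basal S1P in replicates 1 to 4, and 886, 869, 874 and 950 with apical S1P. It had 910, 909, 1017 and 944 with apical agonist, 802, 867, 972 and 1028 with basal agonist, and 799, 823, 867 and 984 with vehicle. Each treated group overlapped vehicle, and the lowest value, 799, was shared by replicate 1 of basal S1P and replicate 1 of vehicle. The log2 difference from vehicle was 0.09 ± 0.08 (SE) with basal S1P, 0.05 ± 0.08 with apical S1P, 0.13 ± 0.08 with apical agonist and 0.08 ± 0.08 with basal agonist (limma adjusted p of 0.776 or more in each). Without the 4 libraries in doubt those of Cldn5 were 0.06 ± 0.10 for basal S1P, 0.02 ± 0.11 for apical S1P and 0.14 ± 0.10 for apical agonist, and without basal S1P replicate 1, its lowest library, that for basal S1P was 0.15 ± 0.08. Opening and tightening treatments had means that lay close together: Cldn5 was at 922 ± 82.0 with basal S1P (SD, n = 4) and 919 ± 66.1 over the 3 tightening treatments (SD, n = 12), a log2 difference of 0.00 with a 95% interval from -0.14 to 0.15, which became 0.07 without basal S1P replicate 1.

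Ocln encodes occludin, a protein with 4 membrane spans that lies in the strands and takes part in their regulation. It (ENSMUSG00000021638) occupies chromosome 13, minus strand, 100496507 to 100552718. Ocln had 1021, 1111, 887 and 1011 normalized counts with basal S1P, and 1121, 1094, 1136 and 1075 with apical S1P. It had 1158, 1131, 1123 and 1084 with apical agonist, 1074, 989, 1029 and 1167 with basal agonist, and 1070, 1027, 966 and 1054 with vehicle. All 4 libraries of apical S1P and all 4 of apical agonist were above all 4 vehicle libraries, while both basal treatments overlapped vehicle. Over all tested genes, 1.32% had groups that did not overlap for apical S1P against vehicle and 0.678% for apical agonist against vehicle, in either direction. The log2 differences from vehicle were 0.11 ± 0.06 (SE) for apical S1P and 0.13 ± 0.06 for apical agonist, 0.05 ± 0.06 for basal agonist and -0.03 ± 0.06 for basal S1P, and the limma adjusted p was 1.00, 1.00, 1.00 and 0.871. Without the 4 libraries in doubt the difference of Ocln from vehicle was 0.11 ± 0.08 for apical S1P and 0.12 ± 0.07 for apical agonist. With each library centred on 4 endothelial markers, the apical agonist difference was 0.01, and with level-matched centring (an alternative chosen after the data were seen), which takes out a trend with the count per base within each library, it was 0.04.

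Ocln also had the smallest p of the 9 between the opening and the tightening treatments. Against the 3 tightening treatments together, 0 of the 9 genes passed, where 0.049% of all genes did (6 genes, all lower), and 1 of the 9, Ocln, was under an unadjusted p of 0.05, against 5.63% of all genes. Ocln was at 1008 ± 92.1 with basal S1P (SD, n = 4) and 1098 ± 52.2 over the tightening treatments (SD, n = 12), a log2 difference of -0.13 ± 0.05 (SE; 95% interval -0.24 to -0.02, limma adjusted p = 0.792). Its lowest library, replicate 3 of basal S1P at 887, was also the lowest of all 20, and without it the difference was -0.07. Without the 4 libraries in doubt it was -0.18 ± 0.06 (limma adjusted p = 0.575). Among the 16 libraries left, all 25 pairs with the same replicate number deviated together (r of 0.556 to 0.805 across genes) from group means taken over all 20 libraries. A limma fit of the 16 with the number as a block gave -0.18 ± 0.04 for Ocln (95% interval -0.27 to -0.09, adjusted p = 0.0128). That fit, chosen after the values had been seen, called 1 of the 9 genes and 5.46% of all genes (670 of 12263), and 375 genes had a smaller adjusted p than Ocln, so a single call among 9 genes is to be read against that share. Leaving out basal S1P replicate 1, 3 or 4 as well gave -0.21, -0.15 and -0.20 for Ocln (limma adjusted p = 0.0239, 0.0943 and 0.0535). The call was thus lost without replicate 3 and without replicate 4. Without replicate 4 the difference was no smaller in size than with it, and the SE was 0.0525, against 0.0429. By side within a compound, 3 of 4 basal S1P libraries were below all 4 apical S1P libraries for Ocln, and 3 of 4 basal agonist libraries were below all 4 apical agonist libraries. Such counts were not taken over all genes, so they have no share to be read against. For the agonist the log2 difference of Ocln between the sides was -0.08 ± 0.06 (SE, 95% interval -0.21 to 0.05).

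Lsr encodes angulin-1, which brings tricellulin to the corners of 3 cells. Its locus (ENSMUSG00000001247) is on the minus strand of chromosome 7 between 30957770 and 30973464. Lsr had 440, 435, 446 and 561 normalized counts with basal S1P, and 453, 390, 437 and 453 with apical S1P. It had 448, 401, 479 and 565 with apical agonist, 420, 400, 465 and 596 with basal agonist, and 436, 419, 438 and 569 with vehicle. Replicate 4 was the highest library of every group except apical S1P, where replicates 1 and 4 were level, and apical S1P replicate 4 is among the 4 libraries in doubt. Replicate number held 78.3% of the sum of squares of Lsr over the 20 libraries and treatment 6.29%, against medians of 42.9% and 13.9% over all tested genes. The pericyte markers moved with the number too, summing to 200 to 291 in replicate 4 of the same 4 groups, to 835 in apical S1P replicate 4 and to 866 or more in all other libraries; their part in the level of Lsr was not tested. Every treated group overlapped vehicle, and the log2 differences were 0.02 ± 0.13 (SE) for basal S1P, -0.09 ± 0.13 for apical S1P, 0.02 ± 0.13 for apical agonist and 0.01 ± 0.13 for basal agonist. Without the 4 libraries in doubt those of Lsr were 0.05 ± 0.15 for basal S1P, -0.14 ± 0.17 for apical S1P and 0.10 ± 0.15 for apical agonist. The exons of Lsr share 946 bases, 43.6% of their length, with the antisense gene Gm4673, and no source used here gives the strand setting of the counting, so reads from both strands cannot be told apart. Gm4673 itself averaged 17.2 normalized counts over the wild-type libraries.

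Among the junctional adhesion molecules, F11r encodes JAM-A, which binds its like across the contact and recruits polarity proteins. The gene (ENSMUSG00000038235) spans 171437535 to 171464603 of chromosome 1, plus strand. F11r had 913, 1137, 1054 and 1014 normalized counts with basal S1P, and 935, 933, 1057 and 1128 with apical S1P. It had 974, 1104, 1149 and 1025 with apical agonist, 930, 911, 1136 and 1133 with basal agonist, and 878, 922, 1030 and 1085 with vehicle. The groups overlapped in all 4 comparisons with vehicle, with log2 differences of 0.07 for basal S1P, 0.05 for apical S1P, 0.12 for apical agonist and 0.07 for basal agonist, each with an SE of 0.10. Leaving out the 4 libraries in doubt, F11r was at 0.02 ± 0.10 for basal S1P, -0.06 ± 0.11 for apical S1P and 0.10 ± 0.10 for apical agonist, so its sign with apical S1P depended on them.

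Esam encodes the endothelial cell-selective adhesion molecule, an immunoglobulin-family protein of endothelial tight junctions. It (ENSMUSG00000001946) occupies chromosome 9, plus strand, 37528078 to 37538319. Esam had 1158, 1411, 1300 and 1244 normalized counts with basal S1P, and 1207, 1215, 1337 and 1305 with apical S1P. It had 1285, 1363, 1364 and 1215 with apical agonist, 1211, 1222, 1320 and 1339 with basal agonist, and 1132, 1169, 1182 and 1246 with vehicle. In all 4 comparisons the treated mean was the higher one, and 3 of 4 apical agonist libraries were above every vehicle library, a count not taken over all genes. The log2 difference was 0.14 ± 0.06 (SE) with apical agonist (95% interval 0.01 to 0.27, limma adjusted p = 1.00), 0.11 ± 0.06 with basal S1P and with basal agonist, and 0.10 ± 0.06 with apical S1P. Esam without the 4 libraries in doubt was at a log2 difference of 0.06 ± 0.06 for basal S1P, 0.04 ± 0.07 for apical S1P and 0.12 ± 0.06 for apical agonist.

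The levels of Cldn5, F11r and Esam followed the scaling of the libraries. The steps in the low values of each library give the normalized counts that 1 read is worth, 0.828 to 1.17 over the wild-type libraries, and the lowest, 0.828 and 0.870, were vehicle replicates 1 and 2. After division by this worth, the coefficient of variation over 20 libraries was 4.86% for Cldn5, against 7.86% as deposited, 3.86% for F11r, against 8.98%, and 4.88% for Esam, against 6.21%. The other members did not show this: the coefficient became 9.76% for Ocln, against 6.58% as deposited, 10.2% for Tjp1, against 5.50%, 8.83% for Cgnl1, against 5.73%, 29.7% for Jam2, against 24.7%, and 12.0% for Jam3, against 8.33%, and it was 13.1% both ways for Lsr. Of 5 further genes, the endothelial Pecam1 and Cdh5 and the actin gene Actb narrowed, to 3.63%, 3.66% and 3.21%, and the endothelial Tie1 and Erg widened, to 9.59% and 9.5%. With level-matched centring, the difference between basal S1P and vehicle became -0.04 for Cldn5 and 0.00 for Esam, and that between apical agonist and vehicle became -0.03 for Cldn5 and 0.02 for Esam. Under the same centring 1 of the 9 genes was higher and 8 were lower with basal S1P, and 4 were higher and 5 lower with apical agonist and again with basal agonist, so the direction of the 9 genes as a group depended on the scaling.

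**Figure D3:**
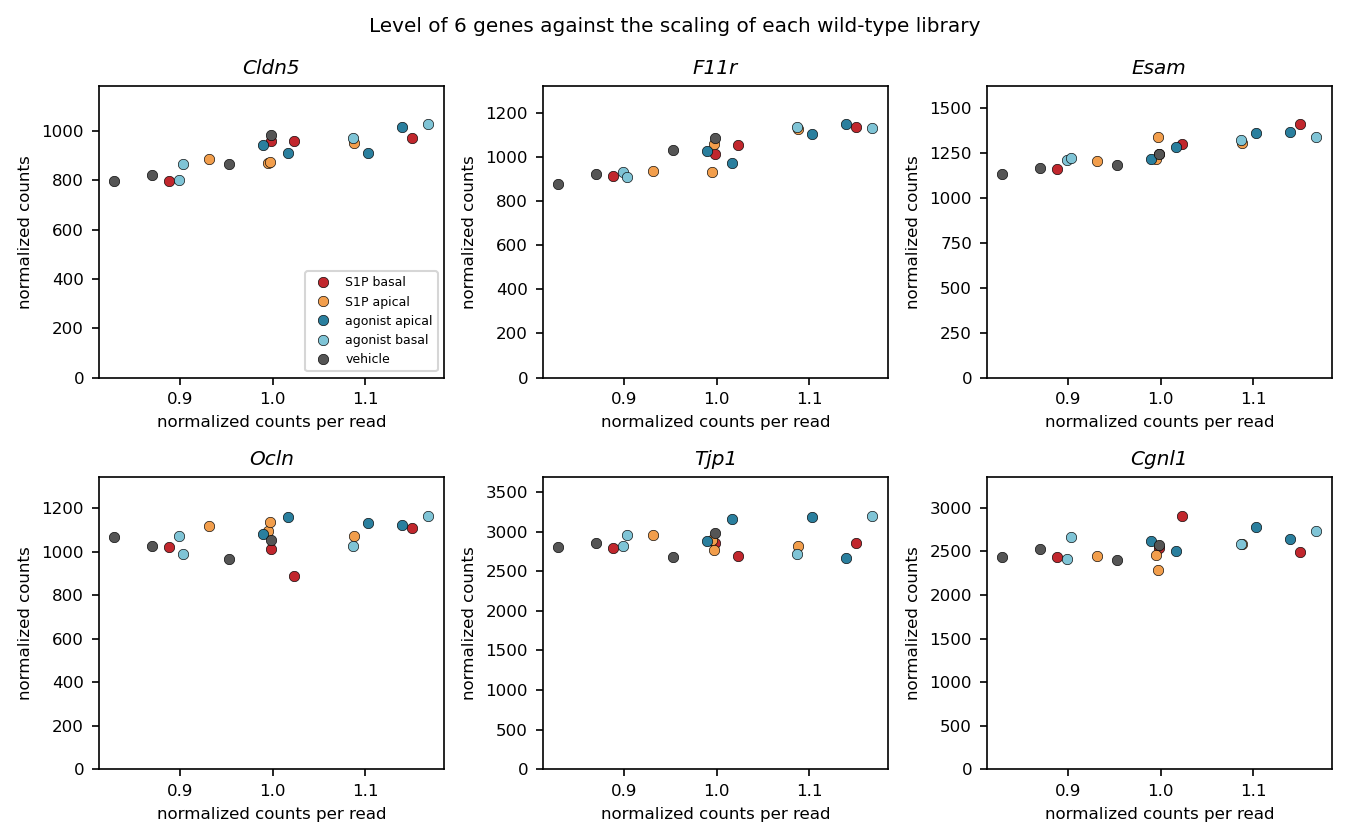
Normalized counts of 6 genes against the normalized counts that 1 read is worth in the same library, for 20 wild-type libraries coloured by treatment. Cldn5, F11r and Esam climb with the scaling across all treatments, and Ocln, Tjp1 and Cgnl1 do so less clearly.

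Jam2 encodes JAM-B, an adhesion molecule of endothelial contacts that binds JAM-C. Its locus (ENSMUSG00000053062) is on the plus strand of chromosome 16 between 84774123 and 84825928. Jam2 had 778, 426, 398 and 786 normalized counts with basal S1P, and 834, 679, 442 and 441 with apical S1P. It had 754, 486, 471 and 836 with apical agonist, 710, 683, 540 and 845 with basal agonist, and 779, 716, 551 and 823 with vehicle. Replicate 3 was the lowest library in 4 of the 5 groups, and in apical S1P replicates 3 and 4 were 1 count apart at the bottom. The 4 libraries in doubt, at 426, 486, 442 and 441, were all below every other library outside replicate 3. Jam2 was the most variable of the 9, with a coefficient of variation of 24.7% over the 20 libraries, at percentile 97.2 of the 2350 genes of like mean. Replicate number held 53.4% of its sum of squares and treatment 12.1%. The pericyte sums were 1904 to 2558 in replicate 1 and 200 to 291 in replicate 4 outside apical S1P, and Jam2 was high in both sets. They were 866 to 1639 in replicate 3 and 835 in apical S1P replicate 4, where Jam2 was low. In replicate 2 they were 1458 with basal S1P and 2101 with apical agonist, where Jam2 was at 426 and 486. In the other groups of replicate 2 they were 1982 to 2010, where Jam2 was at 679 to 716. Like pericyte sums thus went with both high and low Jam2. The part of the pericyte markers in the level of Jam2 was not tested.

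The difference of Jam2 from vehicle was -0.32 ± 0.26 (SE) on the log2 scale with basal S1P, a fold of 0.800 with a 95% interval from 0.549 to 1.17. It was -0.30 ± 0.26 with apical S1P, -0.20 ± 0.26 with apical agonist and -0.05 ± 0.26 with basal agonist. Without the 4 libraries in doubt these became -0.18 ± 0.25, 0.09 ± 0.28, -0.09 ± 0.25 and -0.05 ± 0.23. Within replicate numbers, the log2 difference between basal S1P and vehicle was 0.00 for number 1, -0.75 for number 2, -0.47 for number 3 and -0.07 for number 4, and the basal S1P library of number 2 is in doubt. No interval of Jam2 left out 0 in any of the 8 comparisons fitted over all 20 libraries. In the fit with the number as a block, without the 4 libraries in doubt and without basal S1P replicate 1, Jam2 was lower with basal S1P than with the tightening treatments by a log2 difference of -0.24 ± 0.07 (limma adjusted p = 0.0440). That fit, also chosen after the values had been seen, called 2 of the 9 genes and 4.63% of all genes (567 genes), and Jam2 did not pass when replicate 1 was kept.

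**Figure D4:**
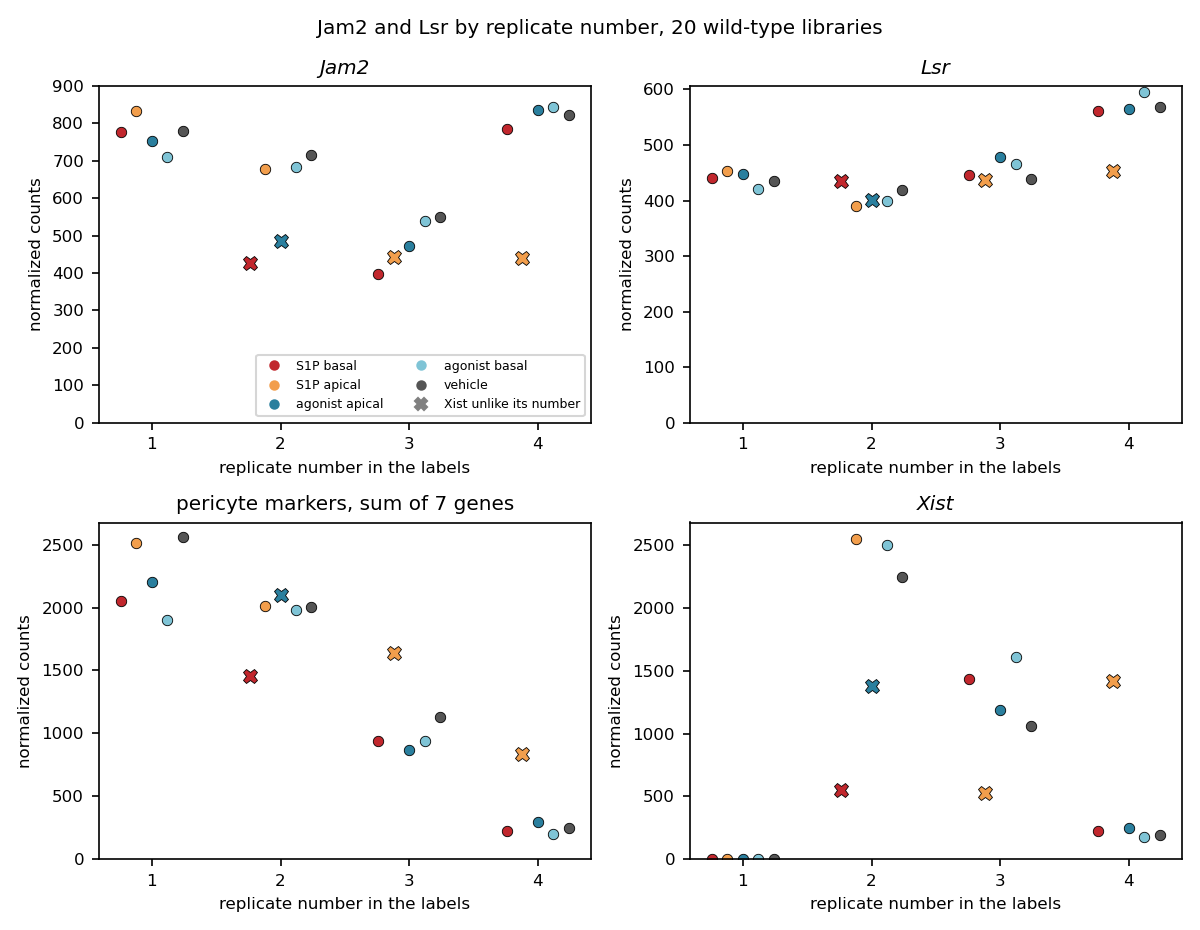
Normalized counts of Jam2, Lsr, 7 pericyte markers summed and Xist by the replicate number in the labels, with 5 treatments as colours and crosses for the 4 libraries whose Xist was unlike that of their number. Jam2 was lowest in replicate 3 and in the crossed libraries, and Lsr was highest in replicate 4 except for the crossed library.

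Jam3 encodes JAM-C, the partner of JAM-B. The gene (ENSMUSG00000031990) spans 27097384 to 27155421 of chromosome 9, minus strand. Jam3 had 153, 154, 165 and 145 normalized counts with basal S1P, and 148, 154, 132 and 175 with apical S1P. It had 152, 167, 168 and 162 with apical agonist, 154, 155, 164 and 147 with basal agonist, and 154, 155, 194 and 144 with vehicle. All groups overlapped, and the log2 differences from vehicle were -0.08 to 0.01 with an SE of 0.10. Jam3 without the 4 libraries in doubt was at -0.06 ± 0.10 for basal S1P, -0.09 ± 0.11 for apical S1P and -0.0015 ± 0.10 for apical agonist. Replicate 3 was the highest library of 4 groups and the lowest of apical S1P, where that library is in doubt. Its exons share 1159 bases, 36.2% of their length, with the antisense gene Gm48796, which averaged 10.9 normalized counts.

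Of the scaffolds, Tjp1 encodes ZO-1, which binds claudins, occludin and actin. It (ENSMUSG00000030516) occupies chromosome 7, minus strand, 65296165 to 65527781. Tjp1 had 2797, 2856, 2699 and 2860 normalized counts with basal S1P, and 2963, 2898, 2768 and 2822 with apical S1P. It had 3164, 3185, 2672 and 2878 with apical agonist, 2822, 2964, 2714 and 3205 with basal agonist, and 2810, 2859, 2686 and 2980 with vehicle. Replicate 3 was the lowest library of every group, and the groups overlapped throughout. The log2 differences from vehicle were -0.02 ± 0.06 (SE) for basal S1P, 0.02 ± 0.06 for apical S1P, 0.07 ± 0.06 for apical agonist and 0.04 ± 0.06 for basal agonist. The interval for basal S1P, from -0.14 to 0.11, allows folds of 0.906 to 1.08 in the deposited values. How far the lower high values of the wild-type table narrow such folds was not tested. With the 4 libraries in doubt left out, Tjp1 was at -0.02 ± 0.07 for basal S1P, 0.05 ± 0.08 for apical S1P and 0.03 ± 0.07 for apical agonist.

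Cgnl1 encodes paracingulin, a cytoplasmic protein that links junctions to the cytoskeleton. Its locus (ENSMUSG00000032232) is on the minus strand of chromosome 9 between 71626509 and 71771602. Cgnl1 had 2439, 2498, 2913 and 2539 normalized counts with basal S1P, and 2451, 2461, 2285 and 2589 with apical S1P. It had 2509, 2776, 2649 and 2619 with apical agonist, 2418, 2661, 2589 and 2738 with basal agonist, and 2439, 2527, 2397 and 2569 with vehicle. Basal S1P held the highest library of all 20 at 2913, and apical S1P the lowest at 2285, both of them replicate 3, and the second is among the 4 libraries in doubt. The groups overlapped, with 3 of 4 libraries of each agonist group above every vehicle library, a count not taken over all genes. The log2 differences from vehicle were 0.06 ± 0.06 (SE) for basal S1P, -0.02 ± 0.06 for apical S1P, 0.09 ± 0.06 for apical agonist and 0.07 ± 0.06 for basal agonist. Without basal S1P replicate 3, its highest library, the basal S1P difference was 0.0056 ± 0.06. Leaving out the libraries in doubt, Cgnl1 was at 0.08 ± 0.06 for basal S1P, -0.01 ± 0.07 for apical S1P and 0.06 ± 0.06 for apical agonist.

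The side of treatment was compared within each compound. For S1P, basal against apical, 0 of the 9 genes passed, against 0.0245% of all genes (3 genes, all lower), and 1 of 9, Ocln, was under an unadjusted p of 0.05, against 491 of all genes. Ocln was at 1008 ± 92.1 with basal S1P and 1106 ± 27.3 with apical S1P (SD, n = 4 each), a log2 difference of -0.14 ± 0.06 (SE, limma adjusted p = 0.999). For the agonist, basal against apical, 0 of the 9 passed, against 0% of all genes, and 0 of 9 were under an unadjusted p of 0.05, against 61 of all genes. Of the 9, 6 were higher and 3 lower on the basal side for S1P and 1 was higher and 8 lower for the agonist. These counts were not stable: with level-matched centring 3 were higher and 6 lower for S1P and 7 higher and 2 lower for the agonist, and with the block and without the 4 libraries in doubt 1 and 8 for S1P and 3 and 6 for the agonist. The test of whether the difference between sides differed between the compounds (the interaction in limma) passed for 0 of the 9 genes and for 0% of all genes, and for 0 of 9 at an unadjusted p under 0.05, against 183 of all genes. The interaction was -0.06 ± 0.09 (SE) for Ocln, 0.09 ± 0.12 for Cldn5 and 0.10 ± 0.08 for Cgnl1 on the log2 scale. S1P was given at 50 nM and the agonist at 500 nM, so the compounds were not compared at a matched dose.

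Per exonic kilobase, the order of the 9 genes was the same in all 5 wild-type groups: Cldn5, Esam, F11r, Tjp1, Cgnl1, Ocln, Lsr, Jam2 and Jam3, from high to low. In wild-type vehicle libraries Cldn5 was at 613 ± 58.0 normalized counts per kilobase (SD, n = 4), above 99.9% of all genes with a mean of at least 10, and Jam3 was at 50.5 ± 6.90, above 47.6% of them. Esam at 412 ± 16.6, F11r at 368 ± 35.8 and Tjp1 at 363 ± 15.6 per kilobase were neighbours in wild-type vehicle, and the ranges of Esam and F11r overlapped, as did those of F11r and Tjp1. Cgnl1 at 317 ± 10.1 did not overlap Tjp1 there, and Ocln at 244 ± 10.8 overlapped Lsr at 214 ± 32.0. Jam2, at 119 ± 19.7, lay apart from both neighbours. The vehicle libraries labelled knockout gave the same order except that Jam2 at 322 ± 14.3 stood above Lsr at 258 ± 21.8 per kilobase of the wild-type gene models (SD, n = 4 each). In these libraries labelled knockout Cldn5 had 13033, 15077, 16981 and 14961 normalized counts and Ocln 5270, 5110, 6244 and 4741, and Jam2 had 1971, 2016, 1985 and 1822. Jam2 averaged 1948 ± 86.4 there (SD, n = 4), and its replicate 3 was not the lowest. In that table the level per kilobase of Cldn5 was 1.55 times that of Esam, and that of Esam 2.33 times that of F11r, against 1.49 and 1.12 times in wild-type vehicle libraries. The tables were normalized separately and differ in their highest values and in the gene models of Cldn5, Jam3 and Tjp1, so no gene was tested between them. For the order and the ratios given here, genotype and these differences between the tables cannot be told apart. Xist was 2, 10209, 3796 and 1438 in replicates 1 to 4 labelled knockout, and 1, 2251, 1063 and 190 in wild-type vehicle. A read was worth 0.83, 0.9055, 0.942 and 0.9985 normalized counts in the former, and 0.8285, 0.8695, 0.9525 and 0.9985 in the latter. Replicates thus ranked alike in both groups. Whether the groups share a source was not tested.

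**Figure D5:**
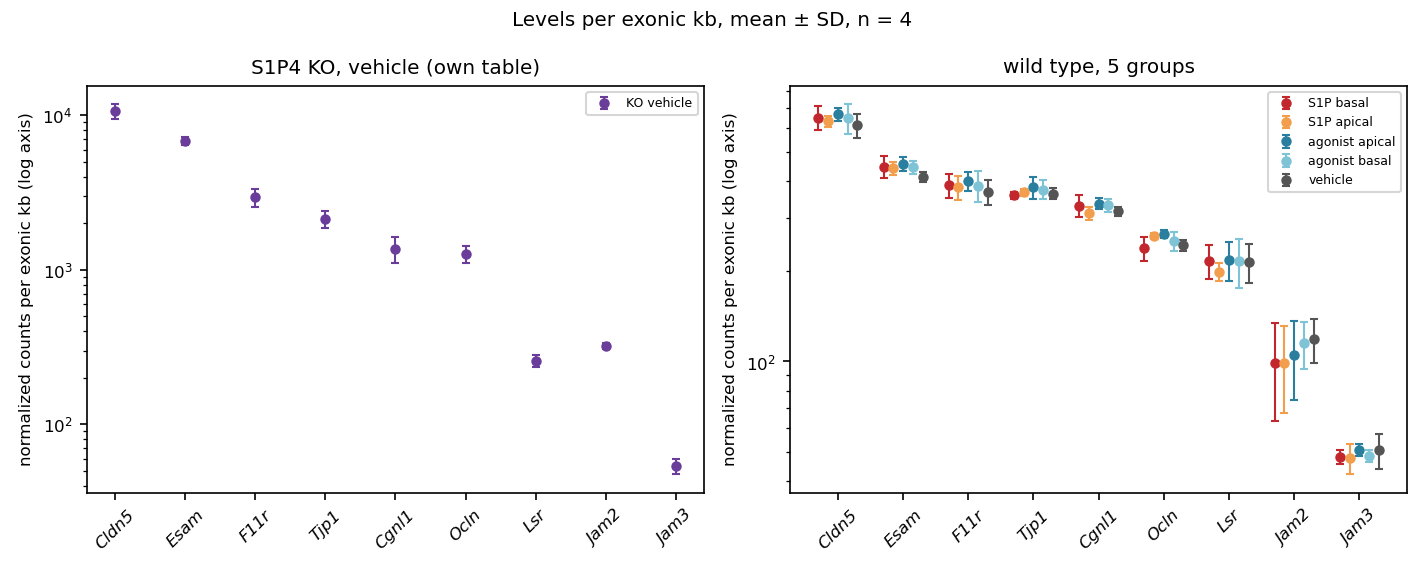
Mean normalized counts per exonic kilobase ± SD of 4 libraries on log axes, for the libraries labelled S1P4 knockout in their own table on the left and 5 wild-type groups on the right, with genes ordered by wild-type vehicle. Cldn5 is at the top and Jam3 at the bottom in both, and the axes cannot be compared because the tables were scaled separately.

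The rest of the tight junction machinery gave no called gene either. Of 102 further genes on 6 lists, 82 were in the wild-type table and 70 were tested, and 0 of the 70 passed in any of the 8 comparisons (limma). For basal S1P against vehicle, 30 of the 70 were higher and 40 lower with a median log2 difference of -0.02, and at an unadjusted p under 0.05 there were 3 of 70 (Vasp, Mpp5 and Foxf2), against 5.22% of all genes. For apical agonist against vehicle 43 were higher and 27 lower, with a median of 0.04, and for basal S1P against the tightening treatments 27 were higher and 43 lower, with a median of -0.02. Vasp, Mpp5, Foxf2 and the claudins at low counts below are named after their values were seen. The smallest adjusted p of any of the 70 was 0.352, for Foxf2, a forkhead factor needed for the blood-brain barrier in mice, with a log2 difference of -0.20 ± 0.06 (SE) between basal S1P and the tightening treatments. Of the 6 tested pericyte markers, 0 were higher and 6 lower in the same comparison, with a median of -0.33. Their part in the level of Foxf2 was not tested.

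Of 22 other claudins, 11 were in the table and 4 were tested (Cldn1, Cldn4, Cldn12 and Cldn34c1), 3 higher and 1 lower with basal S1P than with vehicle. Cldn12 was at 268 ± 32.1 with basal S1P and 241 ± 14.7 with vehicle (SD, n = 4 each), and Cldn34c1 was at 28.8 ± 5.25 and 21.2 ± 2.87 in the same order. The epithelial claudins Cldn3, Cldn4 and Cldn7 were at low counts, with Cldn4 at 10.8 ± 4.35 in vehicle libraries (SD, n = 4) and Cldn3 and Cldn7 with means of 0.75 and 2.00. Of 4 other tested membrane proteins, 3 were higher and 1 lower with basal S1P, with Tmem47 at 1005 ± 101 against 909 ± 117 in vehicle and Ildr2, an angulin like Lsr, at 606 ± 165 against 560 ± 14.5 (SD, n = 4 each).

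Of 15 other scaffolds and adaptors, 4 were higher and 11 lower with basal S1P than with vehicle. Afdn (afadin) was at 1769 ± 160 with basal S1P and 1822 ± 136 with vehicle, and Amotl1 (an angiomotin) at 1681 ± 155 and 1691 ± 193 in the same order (SD, n = 4 each). Of 10 polarity genes 2 were higher and 8 lower, with Dlg1 at 798 ± 44.6 with basal S1P and 798 ± 55.9 with vehicle, and Llgl1 at 615 ± 59.7 and 648 ± 20.6. Of 18 regulators of tight junction gene expression 7 were higher and 11 lower. Of these, Cdh5 (VE-cadherin, upstream of Cldn5 in mouse endothelium) was at 2924 ± 218 with basal S1P and 2719 ± 164 with vehicle, and Ctnnb1 (beta-catenin) at 2290 ± 138 and 2170 ± 159 (SD, n = 4 each).

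Across the 20 wild-type libraries, in each of which all genes share 1 scaling factor, the 9 genes varied with different companions among 10311 genes with a mean of at least 50. Cldn5 was closest to Cd93 (Pearson's r = 0.95) and H2-D1 (r = 0.95), F11r to Cdc42 (r = 0.97) and Cd34 (r = 0.97), and Esam to Fn1 (r = 0.97) and Col4a1 (r = 0.97). Among themselves, Cldn5 and F11r had r = 0.86, F11r and Esam r = 0.85 and Cldn5 and Esam r = 0.74, all of them genes that followed the library scaling. Jam2 was closest to Mef2c (r = 0.97) and Paqr5 (r = 0.97), and Lsr to Mansc1 (r = 0.96) and Trim35 (r = 0.92). Ocln was closest to Clec14a (r = 0.86) and Mbnl2 (r = 0.85), Tjp1 to Ubap2l (r = 0.85) and Ahnak (r = 0.85), and Cgnl1 to Notch4 (r = 0.84) and Myo10 (r = 0.84). Jam3 had the loosest companions, Parp8 (r = 0.84) and Zfp984 (r = 0.77), and Jam2 and F11r had r = -0.57 with each other.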

How the data were processed

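RNA was measured in 20 wild-type libraries and 4 libraries labelled S1P4 knockout. Per the submitters' processing notes, STAR 2.7.3a, featureCounts 1.6.5, DESeq2 1.26.0, Trimmomatic 0.38, FastQC and the mm10 build were used, with no role stated for any. The values the authors deposited are a signal per gene: read counts over a single factor for each library, rounded to whole numbers. This was read from the regular steps between the values, since reads could not be recovered. The wild-type and knockout tables were normalized separately, and no test was made between them. Of the knockout table's 36326 lines, 18029 repeated another line and were dropped.

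Log2(value + 1) of the 12249 genes with a mean of at least 10 in the wild-type libraries entered limma 3.58.1 under R 4.3.3 as 5 group means of 20 libraries, using a trend in the prior variance, two-sided tests, Benjamini-Hochberg adjustment over all of these genes and calls at an adjusted p under 0.05. This scale understates the change of low genes. The spread between 4 libraries per group sets the precision; counting intervals were not given because the reads are not known. The fit was tested on simulated data with independent noise in each library and no effect of the replicate number. That test therefore does not cover deviations shared by libraries of the same number. A count model had been planned only for raw counts and was not used.

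Libraries with the same replicate number may share a pool of mice, which no source used here states. Of 40 pairs of libraries with the same number, 36 had deviations from their group means that correlated at over 0.1 across genes, with a range from -0.345 to 0.805. Of the pairs without the 4 libraries in doubt all 25 did, with the group means still taken over all 20 libraries. Alternatives were other pseudocounts, filters and scalings, the replicate number as a block, and leaving out single libraries or those in doubt. The 9 genes were given, and they and the lists of further tight junction genes were chosen with earlier results of these data known. Named further genes are those that passed any test and the 2 with the highest vehicle mean of each role, and the 2 most alike genes are those with the highest Pearson's r on the log2 scale. The result of 1 of the lists of further genes is not reported here by itself.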

Additional observations from a re-analysis of the deposited data

Results flagged for a closer look

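In 54 groups of 4 libraries, 1 per gene and group, 3 had a library whose gap to its nearest neighbour took up more of the whole range of the group than Dixon's critical value at 95% allows; chance gives about 1 such group in 20. Cldn5 had 799 normalized counts in replicate 1 of basal S1P, where the other 3 libraries had 959, 959 and 970, so the gap was 0.936 of the range. Without that library the log2 difference of Cldn5 between basal S1P and vehicle was 0.15, against 0.09 with it, and that between basal S1P and the tightening treatments was 0.07, against 0.00. Lsr had 561 in replicate 4 of basal S1P, where the others had 435, 440 and 446 (0.913 of the range). Lsr also had 569 in replicate 4 of vehicle, where the others had 419, 436 and 438 (0.873 of the range). Both Lsr libraries had the low pericyte sums of replicate 4, 226 with basal S1P and 244 with vehicle.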

How the results depend on the processing

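Of 1683 values of the 9 genes under alternatives, 3 were called, and none of the called values had another direction than in the fit over all 20 libraries. With the replicate number as a block and without the 4 libraries in doubt, 1 of the 9 genes passed for basal S1P against the tightening treatments (Ocln), against 5.46% of all genes, and 2 (Ocln and Jam2) when basal S1P replicate 1 was left out too, against 4.63% of all genes (567); under all other alternatives and in all other comparisons 0 passed, the block over all 20 libraries included. The adjusted p of Ocln in that comparison (limma) ranged over the alternatives from 0.0128 to 1.00. Signs of uncalled values were less stable: 175 of the 1683 differed in sign, in 52 of 72 pairs of gene and comparison, and 19 values moved by more than the spread. The count of all genes called depended strongly on the fit. For basal S1P against vehicle it was 3, against 47 with the block, 512 with the block and without the libraries in doubt, and 0 with only the groups compared. For basal against apical S1P it was 3, against 83 with the block, 271 with the block and without the libraries in doubt, 0 without those libraries, 1 with only the groups compared, and 1 without S1P apical replicate 2 or 3 or S1P basal replicate 1 or 3. Against the tightening treatments it was 6, against 137 with the block, 670 with the block and without the libraries in doubt (322 to 567 without a further basal S1P library), 14 with level-matched centring, 3 with only the groups compared and 3 without S1P basal replicate 1. For the interaction it was 0, against 2 with the block, 21 with the block and without the libraries in doubt, and 1 without agonist apical replicate 1. The causes were not tested. Per kilobase of coding sequence, 6 of the 9 genes had another rank in vehicle than per exonic kilobase: Ocln moved to rank 4 from 6 and Tjp1 to 7 from 4, while Cldn5 kept rank 1, Cgnl1 rank 5 and Jam3 rank 9. The 9 genes had at least 132 normalized counts in every library. The part of depth in the spread between libraries was not tested, and Jam3, with the lowest counts, is the gene where it could matter most.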
